A study of Mus musculus with 6 samples.

Results

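The transcripts described here are those of 10 genes of phagocytes: Gpnmb, Grn (progranulin), Psap (prosaposin), Lgals3 (galectin-3), Lgals3bp, Cd63, Cd68, Spp1 (osteopontin), Clec7a and Itgax. They were taken by symbol from a table of 28162 genes, and all 10 were found and passed the filter on low values. They were measured in ventral tissue of the lumbar cord of SOD1G93A mice, a model of amyotrophic lateral sclerosis made with a transgene for mutant superoxide dismutase. The AAV-NDNF group (3 libraries) received an adeno-associated virus carrying NDNF, a secreted neurotrophic factor, into the intrathecal space on postnatal day 74. The AAV-GFP group (3 libraries) received a virus of that kind with green fluorescent protein on the same day, and tissue of both groups was taken on day 104. Both groups carried the mutant transgene, and no animals without the transgene or without virus are in the comparison. The sources used here do not give the serotype or promoter of the virus, the sex of the animals or whether any were pooled. The labels call the libraries biological replicates.

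Microglia, the resident phagocytes of the cord, take up dying cells, debris and lipid and break them down in lysosomes. When they do so in degenerating tissue they express a shared set of genes. In it the membrane glycoprotein GPNMB, the lysosomal precursors progranulin and prosaposin, the sugar-binding galectin-3, the lysosomal membrane proteins CD63 and CD68 and the surface receptors dectin-1 (Clec7a) and CD11c (Itgax) are among the best known. Progranulin and prosaposin travel to the lysosome together and are cut there into granulins and saposins, which support lysosomal enzymes, and loss of progranulin in mice and humans leads to lysosomal storage and neurodegeneration.

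The 10 genes were chosen after the comparison of AAV-NDNF with AAV-GFP had been seen. Gpnmb and Lgals3bp had the largest differences of the 10. The differences between the groups are therefore given as a description of these 6 libraries, with no test. Values are read counts that the authors divided by a size factor per library (normalized counts), ± is the standard deviation over 3 libraries unless named a standard error (SE), and each log2 fold change subtracts the AAV-GFP mean of log2(normalized count + 1) from the AAV-NDNF mean. The pseudocount of 1 shrinks the fold changes of low genes.

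The genes lie on 6 chromosomes of the mouse build mm10 (GENCODE M21). Gpnmb is at chr6:49036546-49070929 on the plus strand and Clec7a at chr6:129461591-129472779 on the minus strand. Grn (chr11:102430315-102437048, plus), Cd68 (chr11:69664213-69666153, minus) and Lgals3bp (chr11:118392751-118402092, minus) share chromosome 11, and Psap (chr10:60277627-60302597, plus) and Cd63 (chr10:128900989-128912822, plus) share chromosome 10. Itgax is at chr7:128129547-128150657, Lgals3 at chr14:47367751-47386160 and Spp1 at chr5:104435118-104441050, all on the plus strand. In the annotation 18.8% of the exon bases of Spp1 are shared with Gm42793, a transcript model on the same strand, and 1.96% of those of Grn with Fam171a2 on the opposite strand, so reads there could be split or lost in counting.

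Promoter letters show what some of these genes share apart from their counts. In RefSeq windows (GRCm38.p6), from 250 bases before to 50 bases after the start, 5 motifs were searched on both strands; they were chosen after the promoters had been seen. All 10 genes had a window. TGANTCA, the site of the AP-1 family, was present in 4 of the 10 genes (Gpnmb, Cd68, Psap and Itgax) and in 8.97% of all 27025 genes with a window. CACATG, the core of the M-box bound by the MITF and TFE factors that drive lysosomal genes, was present in 2 of the 10 (Grn and Lgals3bp) and in 15.9% of all. CACGTG, the core of the lysosomal CLEAR element, was in 0 of the 10 and in 8.09% of all. GAGGAAGT, a site of the myeloid factor PU.1, and the core of the interferon-stimulated response element (GAAA, 2 bases of any kind, GAAA) were each in 1 of the 10 (Spp1), against 3.69% and 3.99% of all genes. A match is a run of letters and not a measured binding site. No matches overlapped. The stretches of 30 bases that follow hold the AP-1, M-box and PU.1 matches in capitals and read 5′ to 3′ on the strand of the gene. They are shown because AP-1 was found in the most of the 10 genes, and the M-box and PU.1 are sites of factors of lysosomal and myeloid genes. CATGTG is CACATG read on the other strand.
Gpnmb, chr6:49036514-49036543: gccaggggcaagTGACTCAtgagcacgagt
Cd68, upstream match, chr11:69666302-69666331: gtaagttccgtgTGAGTCAgctgcctcatt
Cd68, match nearer the start, chr11:69666177-69666206: agctgaggtgtcTGAGTCAggtttggggtg
Itgax, chr7:128129482-128129511: ccccacctcctcTGAGTCAcgctgacaact
Psap, chr10:60277598-60277627: gctgcgcgacgcTGAGTCAagctgcgccca
Grn, chr11:102430285-102430314: tgattctctaatCACATGatccctagaaat
Lgals3bp, upstream match, chr11:118401971-118402000: agcagcctctgtCATGTGttttctgaaaat
Lgals3bp, match after the start, chr11:118401910-118401939: tgggacgaggctgaggaaagcCACATGgtg
Spp1, chr5:104434987-104435016: caaaaccagagGAGGAAGTgtaggagcagg
The Gpnmb match lies 9 to 15 bases after the RefSeq start, those of Itgax and Psap 56 and 18 bases before it, and those of Cd68 149 and 24 bases before it.

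The libraries held 15335789 to 20060987 reads assigned to genes. Ndnf itself was at 5286, 7077 and 674 in the AAV-NDNF libraries 1 to 3, against 171, 128 and 158 in the AAV-GFP libraries, so AAV-NDNF replicate 3 was the lowest of its group and still above every AAV-GFP library. AAV-GFP replicate 2 also stood apart: the neuronal gene Syt1 was at 417 there, against 1706 and 1834 in AAV-GFP replicates 1 and 3. Syt1 is named after its values were seen, and other neuronal genes differed from it. Snap25 (31726 against 38137 and 37857), Rbfox3 and Map2 were also lowest of the group there, by less. Nefl (41984 against 37199 and 37560) and the motor neuron gene Chat (877 against 662 and 678) were highest there. So were the summed oligodendrocyte markers (699140.5 against 507040 and 504977) and astrocyte markers (204940.5 against 161841 and 164157). The oligodendrocyte sum of that library lay above every AAV-NDNF library, and those of AAV-GFP replicates 1 and 3 lay below. All 8 motor neuron markers examined, Chat among them, passed the filter. Over all 17480 genes tested, limma called 0 genes at an adjusted p under 0.05 (0%), with 818 at an unadjusted p under 0.05. The quasi-likelihood test of edgeR on recovered reads also called 0 (0%), with 804 at an unadjusted p under 0.05. DESeq2 on the same reads called 54 of the 20518 genes to which it gave an adjusted p (0.263%). The authors' deposited table lists 54 of 20315 (0.266%).

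As a set, the phagocyte genes had lower levels in AAV-NDNF cords, most of all Gpnmb, Lgals3bp and Itgax, whereas Psap and Spp1 were close to level. All 10 log2 fold changes were below 0, from −1.32 to −0.04, with a median of −0.62, where the median over all genes tested was 0.00083 and 49.9% of genes lay below 0. In 7 of the 10 genes every AAV-NDNF library lay below every AAV-GFP library, as it did in 5.5% of all genes tested. Limma over all genes called 0 of the 10, and at an unadjusted p under 0.05 8 of the 10 were lower and 0 higher, where 3.53% of all genes were lower and 1.15% higher. The authors' deposited table lists 4 of the 10 (Gpnmb, Lgals3bp, Grn and Cd68) as lower with an adjusted p under 0.05, as it does 0.246% of its genes. Because the genes were picked from this comparison, nothing is read from these counts. In tissue RNA fewer phagocytes and less of a transcript per phagocyte cannot be told apart.

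**Figure D1:**
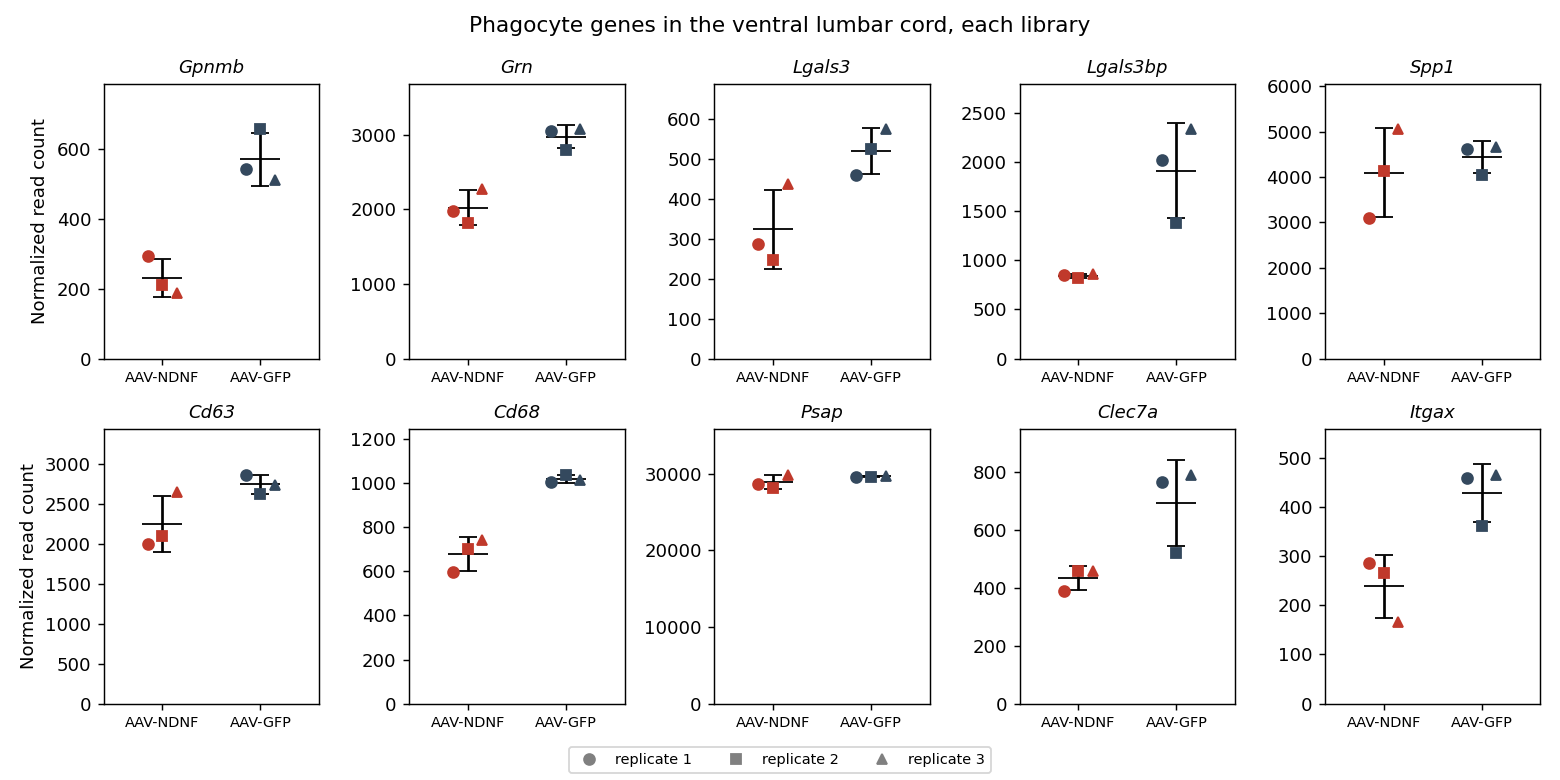
Normalized read counts (y axes from 0) of the 10 phagocyte genes in each AAV-NDNF (red, left) and AAV-GFP (blue-grey, right) library, with symbols for the replicates and bars for the mean ± SD of 3. The groups do not overlap in 7 genes, and Spp1, Cd63 and Psap are the 3 in which they do.

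Gpnmb, a transmembrane glycoprotein that phagocytes loaded with lipid or debris place on endosomes and the cell surface, had the largest difference of the set. It stood at 294, 212 and 187 normalized counts in the AAV-NDNF libraries 1 to 3, against 545, 657 and 512 in the AAV-GFP libraries 1 to 3. The highest AAV-NDNF library was 42.6% below the lowest AAV-GFP library. The mean was 0.404 times that of AAV-GFP, a log2 fold change of −1.32 (SE 0.18). It was −1.18 without AAV-NDNF replicate 3 and −1.22 without AAV-GFP replicate 2. Unlike most of the set, Gpnmb was lowest in AAV-NDNF replicate 3, the library with the least Ndnf, and highest in AAV-GFP replicate 2.

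The precursors progranulin and prosaposin, partners on the way to the lysosome, differed in their behaviour. Grn was at 1972, 1818 and 2279.5 in the AAV-NDNF libraries and at 3058, 2802 and 3072 in the AAV-GFP libraries. The groups were separate by 18.6%, and the log2 fold change was −0.56 (SE 0.12). Psap, which neurons and glia express along with phagocytes, was at 28719, 28136 and 29909.55 in the AAV-NDNF libraries, against 29652, 29647 and 29693 in the AAV-GFP libraries. Its groups overlapped, and its mean was 0.975 times that of AAV-GFP, with a log2 fold change of −0.04 (SE 0.10). The ratio of Grn to Psap counts within a library, which no scaling can change, was 0.0687, 0.0646 and 0.0762 after AAV-NDNF and 0.103, 0.0945 and 0.103 after AAV-GFP. Each AAV-NDNF library thus had less Grn per Psap read than each AAV-GFP library.

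Among the galectin genes, Lgals3 and Lgals3bp were both lower, with different spreads. Lgals3 encodes galectin-3, a secreted and cytosolic lectin that gathers on damaged lysosomes and is released by phagocytic microglia. It was at 288, 248 and 436 after AAV-NDNF and at 461, 525 and 574 after AAV-GFP. AAV-NDNF replicate 3 came within 5.36% of the lowest AAV-GFP library, and the log2 fold change of −0.72 (SE 0.20) was −0.95 without that replicate. Lgals3bp encodes a secreted glycoprotein that binds galectin-3 and is induced by interferon. It was at 847, 818 and 859 after AAV-NDNF, a 1.05-fold range, and at 2022, 1379 and 2329 after AAV-GFP, a 1.69-fold range. The AAV-NDNF libraries were tightly grouped and the AAV-GFP libraries were not. Its log2 fold change was −1.15 (SE 0.17), and −1.37 without AAV-GFP replicate 2, the lowest of its group. The ratio of Lgals3bp to Lgals3 counts was 2.94, 3.30 and 1.97 after AAV-NDNF and 4.39, 2.63 and 4.06 after AAV-GFP, so the groups overlapped in it.

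The lysosomal membrane proteins differed to unlike degrees. Cd68, a heavily glycosylated lysosomal protein used as a stain for active phagocytes, was at 595, 701 and 743 after AAV-NDNF, against 1004, 1038 and 1015 after AAV-GFP. The groups were 26.1% apart and the AAV-GFP libraries lay within a 1.03-fold range, with a log2 fold change of −0.59 (SE 0.12). Cd63, a tetraspanin of late endosomes and exosomes that most cell types express, was at 1996, 2100.4 and 2645 after AAV-NDNF and at 2863, 2625 and 2732 after AAV-GFP. AAV-NDNF replicate 3 lay inside the AAV-GFP range, and the log2 fold change was −0.30 (SE 0.13). Without that replicate it was −0.42.

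Spp1 encodes osteopontin, a secreted phosphoprotein that binds integrins and CD44, and in the mouse cord motor neurons express it as well as phagocytes. It was at 3094, 4146 and 5052 after AAV-NDNF and at 4618, 4049 and 4673 after AAV-GFP. The AAV-NDNF libraries spanned both sides of the AAV-GFP range. The log2 fold change was −0.14 (SE 0.16), smaller than the spread between libraries. It was 0.04 without AAV-NDNF replicate 1 and −0.31 without AAV-NDNF replicate 3. The summed motor neuron markers overlapped between the groups too, at 6549 to 7557 after AAV-NDNF and 6395 to 7743 after AAV-GFP.

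The surface receptors Clec7a and Itgax were both lower, and in each AAV-GFP replicate 2 was the control nearest the AAV-NDNF range. Clec7a encodes dectin-1, a receptor for beta-glucan that signals through the kinase SYK and marks activated microglia. It was at 389, 459 and 459 after AAV-NDNF, against 768, 523 and 793 after AAV-GFP. The groups were 12.1% apart. The log2 fold change was −0.65 (SE 0.17), and −0.84 without AAV-GFP replicate 2. Itgax, the integrin alpha chain CD11c, was at 285, 266 and 165 after AAV-NDNF and at 458, 361 and 466 after AAV-GFP. The groups were 20.9% apart, and the level was lowest in AAV-NDNF replicate 3. The log2 fold change of −0.87 (SE 0.21) was −0.63 without AAV-NDNF replicate 3.

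Within the groups the genes did not keep one order of libraries. AAV-NDNF replicate 3 was the highest of its group for 7 of the 10 genes, yet the lowest for Gpnmb and Itgax. AAV-GFP replicate 2 was the lowest of its group for 7 genes and the highest for Gpnmb and Cd68. Relative to the mean of AAV-GFP replicates 1 and 3 on the log2 scale, that library was at −0.65 for Lgals3bp, −0.58 for Clec7a and −0.36 for Itgax, but at 0.31 for Gpnmb and between −0.20 and 0.04 for the other 6. Without AAV-GFP replicate 2 the groups were separate in 8 genes, and without AAV-NDNF replicate 3 in 9. Groups separate more easily with fewer libraries, and the share over all genes was not computed for these settings. Nothing is read from these counts.

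**Figure D2:**
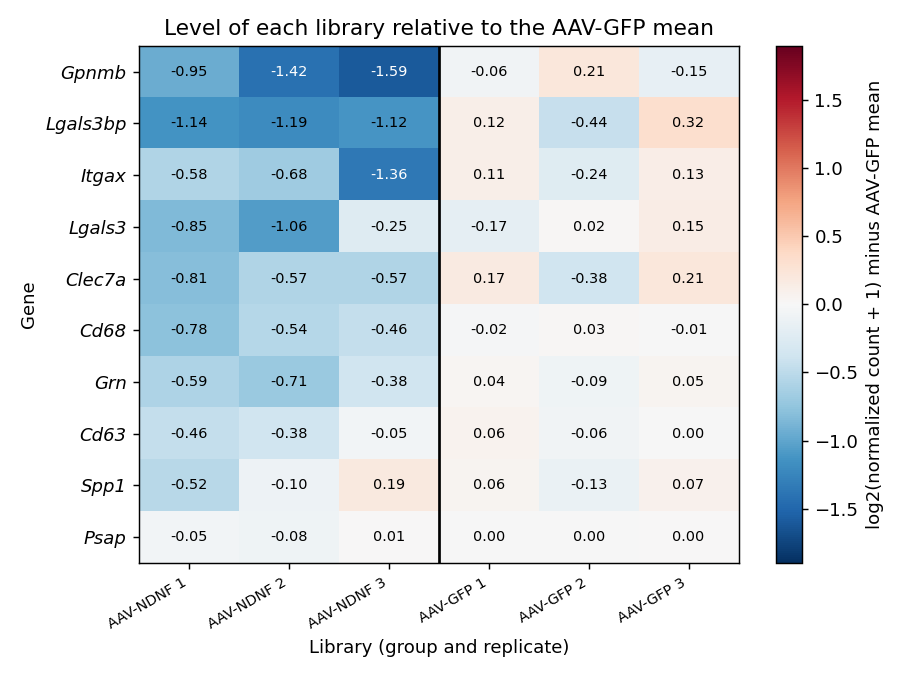
Level of each gene (rows) in each library (columns, AAV-NDNF left of the line) as log2(normalized count + 1) minus the AAV-GFP mean of that gene, with blue for lower and red for higher. AAV-GFP replicate 2 is at −0.44 for Lgals3bp and 0.21 for Gpnmb, and AAV-NDNF replicate 3 is at −1.59 for Gpnmb and 0.19 for Spp1.

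Genes of resting microglia were lower in the same libraries, by less than most of the phagocyte genes. The summed normalized counts of 12 homeostatic microglia genes were 14229.8 to 16348 after AAV-NDNF and 19161 to 19624 after AAV-GFP. In 6 of the 12 every AAV-NDNF library lay below every AAV-GFP library, as it did in 5.5% of all genes tested. Csf1r, the receptor for the growth factor that keeps microglia alive, was at 3274, 3221 and 3016 after AAV-NDNF and at 4489, 4545 and 4315 after AAV-GFP, and Cx3cr1 at 1828, 1614 and 1559 against 2177, 2199.8 and 2184. For P2ry12 (641 ± 123 after AAV-NDNF, 681 ± 73.6 after AAV-GFP) and Tmem119 (464 ± 59.6 and 556 ± 47.8), markers of resting microglia, the groups overlapped. The mean log2 level of the list was −0.30 relative to AAV-GFP. Set against that mean within each library, 7 of the 10 phagocyte genes were still lower after AAV-NDNF, and the median difference of the 10 was −0.32. Gpnmb differed by −1.02, Lgals3bp by −0.85, Cd68 by −0.29 and Grn by −0.27 on this relative log2 scale, and in these 4 genes every AAV-NDNF library lay below every AAV-GFP library. For Itgax (−0.57), Lgals3 (−0.42) and Clec7a (−0.35) the groups overlapped on it. Cd63 was level (−4.83e-06). Spp1 (0.15) and Psap (0.26) turned positive, and for Psap every AAV-NDNF library lay above every AAV-GFP library. The part of microglial number in the differences was not tested.

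**Figure D3:**
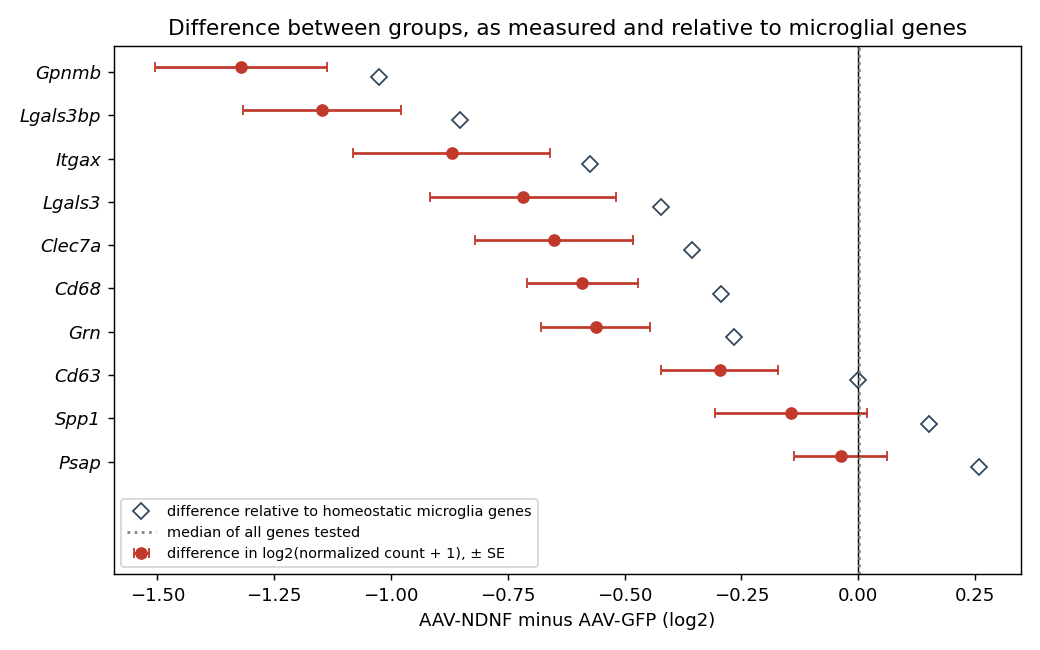
Log2 difference between AAV-NDNF and AAV-GFP (positive when higher after AAV-NDNF) for each gene, as measured (filled circles, ± SE) and after subtracting the mean log2 level of the homeostatic microglia genes in each library (open diamonds). Gpnmb is at −1.32 as measured and −1.02 relative to those genes, Psap at −0.04 and 0.26.

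Markers of other cells that could carry these transcripts were examined as summed levels. The neuron sum was separate between the groups, and those of the other cell types apart from microglia overlapped. The 7 border macrophage genes summed to 140.2 to 142 after AAV-NDNF and 118 to 229.6 after AAV-GFP. The 8 monocyte and neutrophil genes summed to 3.29 to 31.5 after AAV-NDNF and 22.5 to 43.7 after AAV-GFP, and 7 of the 8 were at 0 in at least 1 library. Ly6c2, a gene of inflammatory monocytes, was at 1.68, 6.76 and 0 after AAV-NDNF and at 16.1, 15.6 and 19.2 after AAV-GFP. It was the 1 gene of the 8 whose groups were separate, and it is named after its values were seen. Its counts were near the floor (log2 fold change −2.70, limma adjusted p = 0.740). The means of S100a9, Plac8, Retnlg and Mpo were higher after AAV-NDNF. The 6 dendritic cell genes found in the table, examined because dendritic cells express Itgax, summed to 947.5 to 984 after AAV-NDNF and 879 to 1030.2 after AAV-GFP. Flt3 and Siglech made up most of that sum, and Siglech is also in the homeostatic microglia list. Xcr1 and Clec9a were below the filter, so the sum says little about dendritic cells. The 5 melanocyte genes, examined because melanocytes express Gpnmb, summed to 18.0 to 36.2 after AAV-NDNF and 16.6 to 43.7 after AAV-GFP, with Tyr, Mlana and Tyrp1 at 0 in some libraries. The sum of the 5 neuron genes was higher after AAV-NDNF, at 90162 to 106379.6, against 85305 to 89566. Snap25 and Nefl made up most of it, and in each of the 5 genes taken singly the groups overlapped. Astrocyte genes (138398 to 163542 after AAV-NDNF, 161841 to 204940.5 after AAV-GFP), oligodendrocyte genes (521354 to 563952 and 504977 to 699140.5), Schwann cell genes (34.0 to 47.9 and 32.1 to 45.9) and endothelial and fibroblast genes (2331 to 3144 and 3028 to 3321) overlapped as sums. Single genes in them did not: 2 of the 6 astrocyte genes were lower in every AAV-NDNF library than in any AAV-GFP library, namely Gfap, a filament protein of reactive astrocytes (84320.3 ± 8021 after AAV-NDNF, 108506 ± 17588 after AAV-GFP, log2 fold change −0.36, limma adjusted p = 0.984), and Slc1a3, a glutamate transporter (2254 ± 54.3 and 2538 ± 72.0, −0.17). The same held for 1 of the 6 endothelial and fibroblast genes, Cldn5, a tight junction protein of endothelium (359 ± 79.6 after AAV-NDNF, 488 ± 20.3 after AAV-GFP, −0.46, limma adjusted p = 0.915). It also held for 1 of the 6 oligodendrocyte genes, Mobp (−0.19). Of all genes tested, 5.5% were lower in this way, so little can be read from 1 of 6. Ncmap, the 1 Schwann cell gene that passed the filter, went the other way. It was higher in every AAV-NDNF library (33.6 ± 3.54) than in any AAV-GFP library (26.2 ± 4.14, 0.36, limma adjusted p = 0.997). These single genes are named after their values were seen. The part of these cells in the differences was not tested.

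Per kb of exon, the 10 genes spanned a 175-fold range of median level from Psap to Gpnmb, which gives the differences above their scale. Lengths are the union of all annotated exons, from 1257 bases for Cd68 to 6514 for Gpnmb. A union can be longer than the transcript that a cell makes, which lowers the level per kb. The order of genes at close levels, such as Grn (3474 bases), Cd63 (3682 bases) and Cd68, therefore depends on the annotation. Psap led at 10539.9 ± 329 normalized reads per kb after AAV-NDNF and 10810.5 ± 9.09 after AAV-GFP. Spp1 followed at 2486 ± 594.5 and 2698 ± 209.7. Grn (582 ± 67.7 and 857 ± 43.8), Cd63 (610.3 ± 94.7 and 744 ± 32.4) and Cd68 (540.4 ± 60.7 and 811 ± 13.7) came next, and their order differed between the groups. After AAV-NDNF the ranges of Grn and Cd63 and of Cd63 and Cd68 overlapped, although Cd63 was above Cd68 in each of the 3 libraries, whereas after AAV-GFP Cd63 was below Grn and Cd68 in all 3 libraries and the ranges of Grn and Cd68 overlapped. Lgals3bp was at 295 ± 7.44 after AAV-NDNF and 671 ± 170.2 after AAV-GFP. In AAV-NDNF libraries it lay below Cd68 throughout, and in AAV-GFP libraries the ranges of these genes overlapped. Lgals3 (174 ± 53.4 and 279.7 ± 30.5) and Clec7a (165 ± 15.5 and 263 ± 56.5) had overlapping ranges in both groups, as did Itgax (49.7 ± 13.4 and 89.1 ± 12.2) and Gpnmb (35.4 ± 8.54 and 87.7 ± 11.7). Within libraries, Itgax was above Gpnmb in 3 of 3 AAV-NDNF libraries and in 2 of 3 AAV-GFP libraries.

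**Figure D4:**
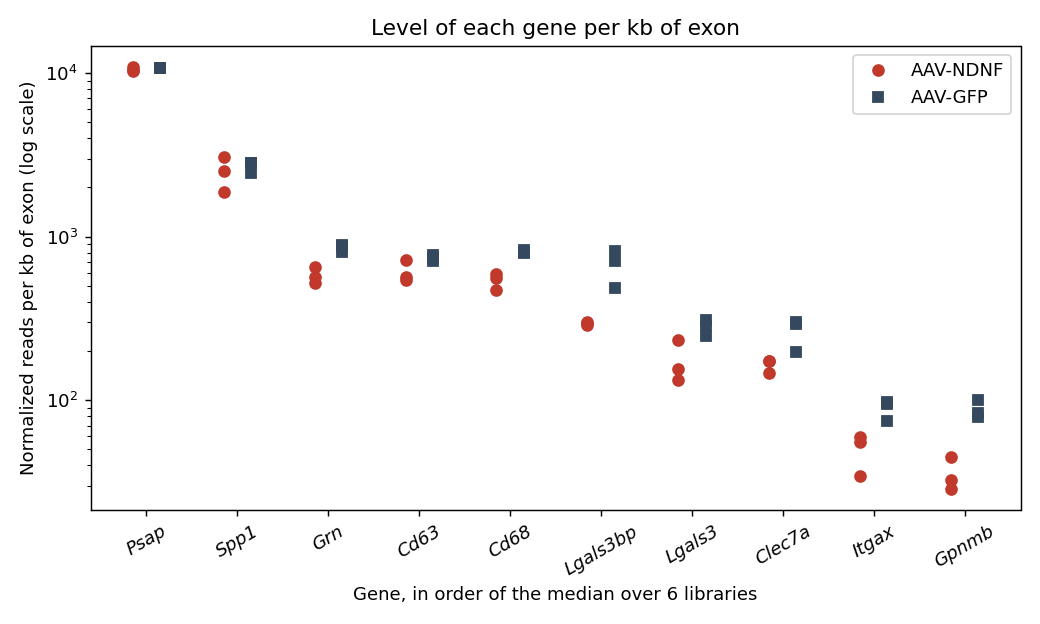
Normalized reads per kb of exon (log scale) of each gene in the AAV-NDNF (red circles, left) and AAV-GFP (blue-grey squares, right) libraries, in order of the median. Psap leads at 10539.9 and 10810.5, and Gpnmb is last at 35.4 and 87.7.

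The receptors, partners and regulators of these proteins were examined as lists, and limma over all genes called 0 of their members in either direction (0% of all genes). In the list of 15 direct partners, 11 were below 0, the median log2 fold change was −0.15, and 3 (Itgb2, Itgb5 and Cd44) were lower at an unadjusted p under 0.05, as were 3.53% of all genes. Itgb2, the beta chain that pairs with Itgax, was at 479, 506 and 428 after AAV-NDNF and at 655, 684 and 779.7 after AAV-GFP. Its groups did not overlap (log2 fold change −0.58, limma adjusted p = 0.442), and the authors' deposited table gives an adjusted p of 0.0492. Itgb5, which pairs with Itgav to bind osteopontin, was at 1869.7, 1811 and 1913 after AAV-NDNF and at 2657, 2700.2 and 2505 after AAV-GFP. The difference was −0.49 on the log2 scale (limma adjusted p = 0.364), and the authors' deposited table gives an adjusted p of 0.00962. Cd44, a receptor for osteopontin and hyaluronan, was at 723, 599 and 691 after AAV-NDNF and at 797, 999 and 763 after AAV-GFP (−0.34, limma adjusted p = 0.995).

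The other osteopontin receptors and the partners of progranulin, prosaposin, Gpnmb and Clec7a overlapped between the groups, with the exception of Tmem106b. Itgav was 1980 ± 134 after AAV-NDNF and 2020 ± 240.2 after AAV-GFP, Itgb1 was 2401 ± 130.3 and 2221 ± 141.5, and Itgb3 was 91.6 ± 9.56 and 103 ± 14.7. Sort1 (sortilin), the receptor that takes progranulin into cells, was 6655 ± 1205 after AAV-NDNF and 6717 ± 932 after AAV-GFP. Tmem106b, a lysosomal membrane protein linked to progranulin disease in humans, was 2869 ± 86.9 after AAV-NDNF and 2670.4 ± 25.7 after AAV-GFP, with every AAV-NDNF library above every AAV-GFP library (0.10, limma adjusted p = 0.997). Lrp1, through which prosaposin enters cells, was 8984 ± 2744 and 10158 ± 810.5. The prosaposin receptors Gpr37 (4387 ± 196 and 4106 ± 883) and Gpr37l1 (6789 ± 447 and 7522 ± 708) overlapped between the groups. So did Sdc4, a heparan sulphate proteoglycan that binds Gpnmb (3164 ± 302 and 3493 ± 314), and the relays of Clec7a, namely Syk (142 ± 8.37 and 169 ± 19.3), Card9 (92.1 ± 4.73 and 97.7 ± 47.2) and Plcg2 (217 ± 54.8 and 255 ± 45.0).

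The MITF and TFE factors, which switch on Gpnmb and lysosomal genes, showed no called difference. Mitf was 373 ± 41.1 after AAV-NDNF and 402 ± 28.6 after AAV-GFP, Tfeb was 432 ± 20.1 and 453.5 ± 110.4, and Tfe3 was 696 ± 58.0 and 775 ± 54.2. Their log2 fold changes were −0.11, −0.04 and −0.16, each within an overlap of the groups, and Tfec was at 0 in 5 of the 6 libraries and was not tested. In the M-box cores printed above, the promoters of Grn and Lgals3bp carry the core letters of their site. Binding and activity of the factors were not measured.

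Of the 5 other galectins tested, Lgals9 differed most. Lgals9 (galectin-9), which interferon induces, was at 235, 204 and 220.2 after AAV-NDNF and at 470.5, 277 and 469 after AAV-GFP. Its log2 fold change was −0.84 (limma adjusted p = 0.53), the groups did not overlap, and AAV-GFP replicate 2 was again the lowest control, as for Lgals3bp. The authors' deposited table gives Lgals9 an adjusted p of 0.0365. Lgals1 was 699 ± 136 and 731.5 ± 65.6, and Lgals8, which detects broken lysosomes, was 1429 ± 43.6 and 1495 ± 9.88, with groups that were separate by 0.330%. Lgals4 (43.0 ± 9.26 and 53.9 ± 15.2) and Lgals2 (16.8 ± 14.4 and 15.0 ± 6.53) were low, and Lgals12 was below the filter. The median of the list, −0.11, is the value of Lgals2, whose sign is not settled: its mean count was higher after AAV-NDNF, and the authors' deposited table gives it a log2 fold change of 0.16.

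In the wider lysosome the saposin-dependent enzymes were close to level, and many membrane proteins and hydrolases were lower without passing the test. The list of 8 saposin-dependent enzymes, with the GM2 activator among them, had log2 fold changes between −0.16 and 0.02 with a median of −0.04, and in 0 of them did the groups separate. Gm2a was 2626 ± 102 and 2679.7 ± 154, Smpd1 (acid sphingomyelinase) was 1946 ± 62.2 and 1943 ± 75.5, and Asah1 (acid ceramidase) was 1381 ± 102 and 1364 ± 180 in AAV-NDNF and AAV-GFP libraries. Among 19 tested lysosomal membrane proteins and hydrolases 16 were below 0, the median was −0.17, the groups were separate and lower after AAV-NDNF in 8 (5.5% of all genes tested), and 5 were lower at an unadjusted p under 0.05 (3.53% of all genes tested). Lamp1, the main protein of the lysosomal membrane, was 12549 ± 1016 after AAV-NDNF and 12770.3 ± 1113 after AAV-GFP. Scarb2, the receptor that carries glucocerebrosidase to the lysosome, was 5474 ± 146 after AAV-NDNF and 5918 ± 506 after AAV-GFP. Laptm5, a lysosomal protein of white blood cells and microglia named here after its values were seen, was at 1708, 1599 and 1357 after AAV-NDNF and at 2329, 2283 and 2374 after AAV-GFP (−0.59, limma adjusted p = 0.351). The authors' deposited table gives it an adjusted p of 0.00704. The other 7 tetraspanins had a median of −0.20, and Cd81 (10611 ± 1411 and 10957 ± 343), Tspan7 (7682 ± 993 and 7015 ± 899.7) and Cd9 (2803 ± 718.5 and 3165 ± 196) each overlapped between the groups.

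**Figure D5:**
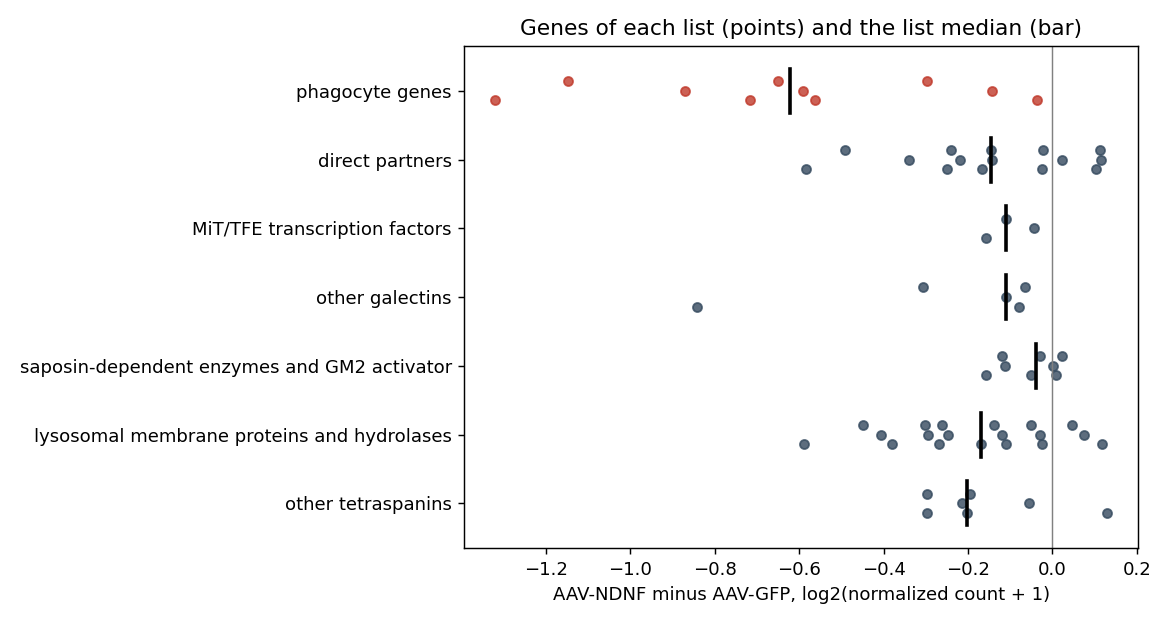
Log2 fold changes (AAV-NDNF minus AAV-GFP, x axis) of the tested genes of each list (points) with the list median (bar). The phagocyte genes, chosen from this comparison, have a median of −0.62, against −0.20 to −0.04 in the 6 other lists.

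The profile of Gpnmb over the 6 libraries was closest to those of 5 genes of low level, Gm44877, Gm36569, Gm7997, Gm49086 and Gm38162. Closeness was the root mean square difference of the centred log2 profiles, which was 0.18 to 0.21 for these genes. Their mean levels were between 5.30 and 34.8 normalized counts in each group, where counting error is large. Among the phagocyte genes Itgax was nearest to Gpnmb (0.35, rank 57 of the other genes tested), then Lgals3bp (0.40, rank 123), Cd68 (0.48, rank 402) and Grn (0.48, rank 405). Psap (0.68) and Spp1 (0.73) were farthest.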

How the data were processed

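Polyadenylated RNA was made into libraries and sequenced on a NovaSeq, as the labels' protocols state. According to the submitters' processing notes, cutadapt, HISAT2, HTSeq and DESeq2 were used with mm10. Their versions, the annotation and the strand setting are not given in the sources used here. Per the file headers and values, the per-library columns are a signal that the authors made by dividing read counts by one size factor per library. All values (100%) were whole multiples of 1 read (tolerance 0.001), so reads could be recovered. The authors also deposited log2 fold changes, p-values, adjusted p-values and a Wald score. Precision is limited by 3 libraries a group.

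The main two-sided test was limma (trend, robust) on log2(normalized count + 1). It kept any gene that reached 10 normalized counts in 3 or more libraries, and used Benjamini-Hochberg adjustment over all of them with a threshold of 0.05. Alternatives were scaling, filter, pseudocount, edgeR, DESeq2, a replicate block and leaving out libraries. The script was tested on simulated data. Members and lists were chosen with earlier results of these data known. Named genes are the 10, all partners, MITF and TFE factors and galectins, the 3 most abundant of each other list, the 5 closest to Gpnmb and defining markers of lists that moved with the 10. Some genes that this rule names are not reported here. The p-values weigh the difference between groups against the spread between these libraries. In limma the variance of each gene is drawn toward that of the other genes. Versions were DESeq2 1.42.0, edgeR 4.0.16, limma 3.58.1, matplotlib 3.10.9 and R 4.3.3.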

Additional observations from a re-analysis of the deposited data

How the results depend on the processing

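Of 150 recomputed log2 fold changes of the 10 genes, 149 kept their sign and moved by less than the spread between libraries. The exception was the Spp1 log2 fold change, which was −0.31 to 0.044 when single libraries were left out, and 0.044 without AAV-NDNF replicate 1. The changes of filter and the replicate block cannot alter a log2 fold change. Their values repeat the main ones by design and say nothing about stability. Limma called 0 of 17480 genes, but 3 of 28162 with no filter (2 of the 10: Gpnmb and Lgals3bp). DESeq2 called 54 of 20518 (4 of the 10, 2 direct partners, 1 galectin and 1 lysosomal gene: Itgb5, Itgb2, Lgals9 and Laptm5). Leaving out 1 library gave 0 to 43 called genes of 17480, with 0 to 2 of the 10 and 0 to 1 galectin. It left 382 to 971 genes lower at an unadjusted p under 0.05. The 43 arose without AAV-GFP replicate 2 and included Lgals3bp and Lgals9, and 11 arose without AAV-NDNF replicate 3, including Gpnmb and Grn. The median difference relative to homeostatic microglia genes was −0.37 to −0.25 without single libraries and −0.52 against border macrophage genes. Of the 5 genes closest to Gpnmb, 0 were shared with a pseudocount of 10. With the replicate number as a block 6 of 17480 genes were called, 2 of them in the set (Gpnmb and Lgals3bp). The 10 were picked from this comparison, so nothing is read from the calls among them in any setting. Same-numbered libraries deviated from their group means with correlations of −0.09, 0.05 and 0.08. No pairing by number was seen in them, but 3 libraries a group are too few to exclude one. The separation of the groups was not recomputed for the pseudocounts, tools and block, which leave the order of libraries as it is. The cause of these changes was not tested. The difference of Spp1 was smaller than the spread between libraries. That of Psap was −0.04 with an SE of 0.10, and its groups overlapped.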
